A study of Mus musculus with 6 samples.

Results

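T-box transcription factors are a family of developmental regulators, and 10 of them were followed here by gene symbol among the 24453 symbols counted: Tbx1, Tbx2, Tbx3, Tbx4, Tbx5, Tbx6, Tbx15, Tbx18, Tbx20 and Eomes. All 10 had a row in the count files, and 7 had enough counts to be tested. The data are RNA sequencing counts from epidermal cells of newborn mouse back skin (postnatal day 0), sorted by surface EpCAM, Sca1 and a high level of α6-integrin, a gate for interfollicular epidermis enriched for its progenitors. The 3 control-labelled libraries (C1, C2 and C3) carry the genotype Control, and the 3 knockout-labelled libraries (K1, K2 and K3) carry the genotype Ring1a-/- Ring1b-/-. The labels name no strain, Cre driver, litter or sex and do not say whether each library is a separate animal, so the p-values cover no more than the variation among these 6 libraries, which may be technical. The gene Ring1 encodes Ring1a and Rnf2 encodes Ring1b, the ubiquitin ligases of Polycomb repressive complex 1 (PRC1), and the series asks what this complex does in developing skin epithelium.

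T-box factors bind DNA through a shared domain, the T-box, and specify mesoderm, limb, heart, pharyngeal and skin mesenchyme fates in the embryo. Several lie as neighbouring pairs that arose by duplication, with Tbx2 beside Tbx4 and Tbx3 beside Tbx5. Their genes are textbook Polycomb targets, held silent outside the tissue that uses them, and their start sites often lie in CpG-rich DNA, which attracts Polycomb complexes.

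The upstream sequences show how far the family varies in CpG content at its start sites. RefSeq (GRCm38.p6) promoter windows were held for 6 of the 10 genes in 7 windows, each of 250 bases before to 50 after a start site, and Tbx2, Tbx3, Tbx5 and Tbx15 had no entry. The 250 bases before the start are shown 5′ to 3′ on the gene's strand, with CpG dinucleotides in capitals, for Tbx1 and Tbx18, whose groups of libraries did not overlap below, for Tbx20, which stayed near the detection floor, and for Tbx6, whose groups overlapped.
Tbx1 (chr16:18590672-18590921, minus strand): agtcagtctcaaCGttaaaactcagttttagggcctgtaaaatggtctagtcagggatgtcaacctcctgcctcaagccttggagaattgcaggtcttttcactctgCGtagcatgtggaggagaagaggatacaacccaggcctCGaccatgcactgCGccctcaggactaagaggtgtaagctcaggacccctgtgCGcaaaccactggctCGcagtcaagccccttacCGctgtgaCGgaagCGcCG
Tbx18 (chr9:87731261-87731510, minus strand): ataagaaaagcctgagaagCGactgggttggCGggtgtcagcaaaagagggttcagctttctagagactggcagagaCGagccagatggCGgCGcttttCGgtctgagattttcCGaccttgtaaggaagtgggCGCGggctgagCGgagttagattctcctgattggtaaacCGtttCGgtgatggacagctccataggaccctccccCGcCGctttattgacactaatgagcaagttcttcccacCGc
Tbx20 (chr9:24774304-24774553, minus strand): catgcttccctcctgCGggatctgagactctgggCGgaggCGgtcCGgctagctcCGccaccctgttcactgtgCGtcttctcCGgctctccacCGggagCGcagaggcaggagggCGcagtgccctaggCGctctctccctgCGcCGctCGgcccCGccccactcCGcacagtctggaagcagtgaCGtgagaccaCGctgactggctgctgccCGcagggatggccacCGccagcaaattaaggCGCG
Tbx6 (chr7:126781233-126781482, plus strand): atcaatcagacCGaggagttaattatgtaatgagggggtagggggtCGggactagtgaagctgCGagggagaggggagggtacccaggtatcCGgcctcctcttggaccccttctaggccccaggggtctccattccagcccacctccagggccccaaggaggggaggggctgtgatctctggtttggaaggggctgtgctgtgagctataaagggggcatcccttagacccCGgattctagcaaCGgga
Over the full windows of 300 bases, Tbx1 held 16 CpG at the start shown and 26 at a second start, Tbx18 held 15, Tbx20 held 26 and Eomes held 10. Tbx6 held 7, and Tbx4, at a start inside its gene, held 8. Over all 32851 windows of this length the median was 7 and the quartiles were 3 and 20. Above the upper quartile lay the second start of Tbx1 and that of Tbx20, which had almost no counts, and Tbx18 and the Tbx1 start shown lay between the median and that quartile. The T-box motif AGGTGTGA, searched on both strands (reverse complement TCACACCT), was in 0 of the 7 windows and in 1.28% of all windows.

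Depth and labels bear on every value. The libraries held 18951665 to 31187270 counts, and levels are given as CPM on TMM (trimmed mean of M values) library sizes, listed in the order of the replicate numbers. A count of 0 allows a level of up to 3 counts, or 0.0975 to 0.154 CPM, a limit that covers counting error only. Basal keratin Krt5 was at 15665 to 28244 CPM and Epcam at 116 to 381 CPM over the 6 libraries. Of the 9 keratinocyte markers, all tested, edgeR called 0 higher and 1 lower, and DESeq2 1 higher and 2 lower. The gene edgeR called, Trp63, the master factor of stratified epithelium, had 1729 to 1790 CPM in the control-labelled and 939 to 1140 CPM in the knockout-labelled libraries (edgeR adjusted p = 0.0176). Krt15, a keratin of basal cells, was lower in every knockout-labelled library without passing the test (2732 to 3125 against 569 to 1918 CPM; edgeR adjusted p = 0.126). The targeted gene Ring1 did not follow the labels: it had 30.9, 17.1 and 3.90 CPM (C1 to C3) against 1.66, 5.20 and 14.2 CPM (K1 to K3), with K3 above C3. Rnf2 had 43.2 to 63.2 CPM in the control-labelled and 55.4 to 64.1 CPM in the knockout-labelled libraries, and the sources used here do not name the deleted exons. The X-inactivation transcript Xist also differed within the groups, at 10.5, 6.91 and 1757 CPM (C1 to C3) against 6133, 4736 and 4.48 CPM (K1 to K3). Ddx3y, from the Y chromosome, was at 91.2, 102 and 59.7 CPM (C1 to C3) against 0.0346, 0.206 and 76.2 CPM (K1 to K3), so C3 held both transcripts. Whether replicate 3 libraries were exchanged or hold mixed material was not tested. The main calls are therefore also given with replicates 1 and 2 alone, which leaves out both replicate 3 libraries, and directions are those of the labels. In that subset both control-labelled libraries had low Xist and high Ddx3y, and both knockout-labelled ones had the reverse. A difference of sex cannot be told apart from one of genotype there.

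In the knockout-labelled libraries Tbx3, Tbx15 and Tbx1 rose, by 15.9-fold, 10.2-fold and 8.33-fold, and no T-box gene was called lower. These were 3 of the 7 tested genes (edgeR, adjusted p under 0.05), beside 7.17% of all 14890 tested genes called higher and 2.98% called lower. The call of Tbx1 had a small margin (edgeR adjusted p = 0.0492). Tbx18 and Tbx5 had fitted increases of similar size that missed the threshold, Tbx2 and Tbx6 overlapped between groups, and Tbx4, Tbx20 and Eomes were too low to be tested. In 5 of the 7 tested genes every knockout-labelled library was above every control-labelled one, against 17.6% of all tested genes. The filter on low counts asked for about 10 counts in 3 libraries. Tbx3 and Tbx15 met it in all 6 libraries and Tbx5 met it only in the knockout-labelled ones. Tbx1, Tbx2 and Tbx18 met it in all 3 knockout-labelled libraries but in only 2, 1 and 1 control-labelled ones. On the control-labelled libraries alone only Tbx3 and Tbx15 would have passed, so the counts over the tested genes describe those genes and not the family.

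**Figure D1:**
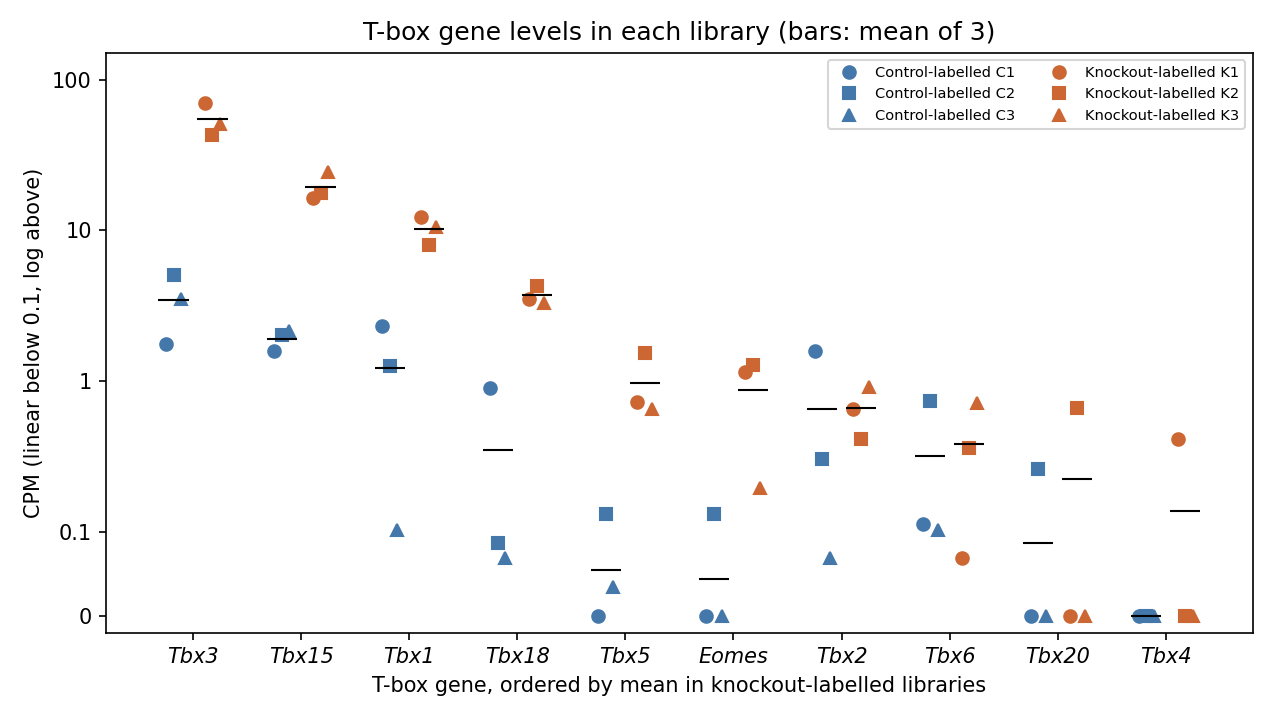
CPM of the 10 T-box genes in each library on an axis that is linear below 0.1 and logarithmic above, with blue for control-labelled, orange for knockout-labelled and a bar at each mean of 3 libraries. Tbx3, Tbx15, Tbx1, Tbx18, Tbx5 and Eomes have every orange point above every blue one, while Tbx2, Tbx6, Tbx20 and Tbx4 overlap.

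Tbx3, a repressor of limb, mammary and heart development that is mutated in ulnar-mammary syndrome, had the highest level of the 10 genes per length of transcript. It had 1.76, 5.07 and 3.52 CPM (C1 to C3) against 69.9, 42.9 and 51.1 CPM (K1 to K3). The lowest knockout-labelled library was thus well above the highest control-labelled one. The log2 fold change was 3.99 ± 0.37 (SE, n = 3 libraries per group; edgeR adjusted p = 0.00099). The gene lies on chromosome 5 at 119670669 to 119684724 (GRCm38, plus strand), and it overlaps the antisense gene Tbx3os1, which has no row in the files. The labels and notes do not state the strand of counting, so reads of such an antisense transcript cannot be told apart from those of Tbx3.

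Tbx3 has a linked partner, Tbx5, which specifies the forelimb and the heart and is mutated in Holt-Oram syndrome. Tbx5 lies 147.9 kb further along chromosome 5 (119832668 to 119885219, plus strand), with no coding gene between them. It had 0, 3 and 1 counts (C1 to C3) against 21, 30 and 20 (K1 to K3), or 0, 0.131 and 0.0342 against 0.727, 1.54 and 0.650 CPM. The groups did not overlap, and the level stayed far below that of Tbx3. The log2 fold change was 4.08 ± 1.17 (SE), the same size as that of Tbx3, but it missed the threshold (edgeR adjusted p = 0.0567). Among the settings run DESeq2 alone called it (adjusted p = 0.0156). Per kilobase of exon Tbx3 had 8.25 ± 2.09 CPM (SD, n = 3) in the knockout-labelled libraries and Tbx5 0.208 ± 0.106. Between the pair, the long noncoding RNA Tbx3os2 had 3 counts in K3 and 0 in the other 5 libraries.

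Tbx2 and Tbx4, the other linked pair, lie 44.5 kb apart on chromosome 11 (Tbx2 at 85832551 to 85841948 and Tbx4 at 85886422 to 85916097, both plus strand) and did not show the pattern of Tbx3. Tbx2, the closest relative of Tbx3 and a repressor of cell cycle inhibitors, had 1.58, 0.306 and 0.0684 CPM (C1 to C3) against 0.658, 0.412 and 0.910 CPM (K1 to K3). C1 alone held 82.4% of its 51 control-labelled counts, and the groups overlapped. The log2 fold change was 0.03 ± 1.06 (SE; edgeR adjusted p = 0.991), and its approximate 95% interval of -2.05 to 2.11 leaves room for a change of either sign. Tbx4, which specifies the hindlimb, had 12 counts in K1 and 0 in the other 5 libraries, so K1 alone gave its level of 0.415 CPM there. Allowing 3 counts for the control-labelled group, the knockout-labelled sum was at least 3.98-fold higher, and it rests on K1. The exact permutation test of Tbx4 gave p = 1.00 (two-sided, 3 against 3 libraries), an outcome fixed in advance. With counts in K1 alone, every split of the libraries gives a difference of the same size, so the test could not decide.

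**Figure D2:**
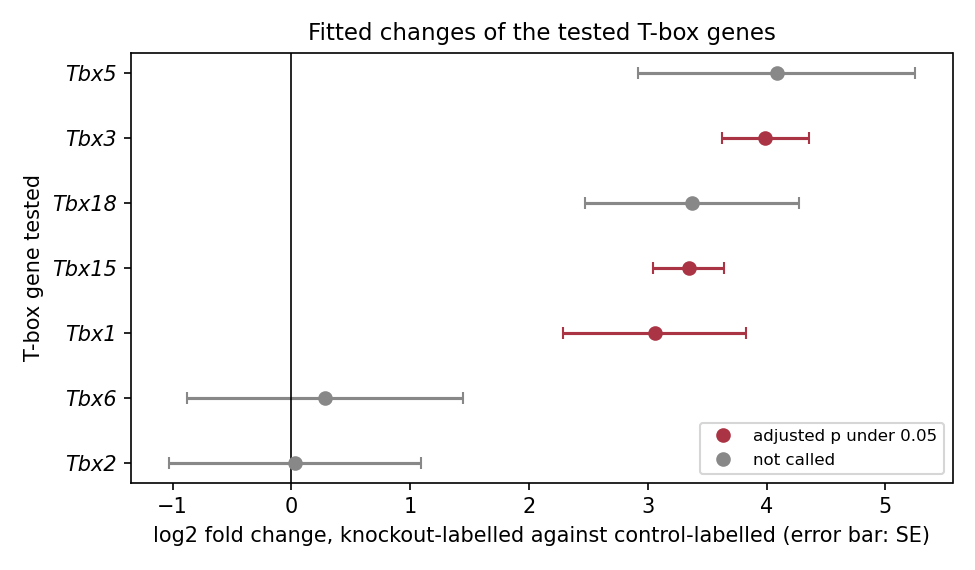
Log2 fold change (knockout-labelled against control-labelled) of the 7 tested T-box genes with the SE of the fit as error bar; red marks adjusted p under 0.05. Tbx5, Tbx3, Tbx18, Tbx15 and Tbx1 lie between 3.06 and 4.08, with wide errors for Tbx5, Tbx18 and Tbx1, and Tbx6 and Tbx2 lie near 0.

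Tbx15 and Tbx18 are close relatives that act together in limb skeleton and skin mesenchyme. Tbx15, which sets the dorsal pattern of the dermis and of coat pigment, is on chromosome 3 (99240381 to 99354259, plus strand). It had 1.58, 2.01 and 2.16 CPM (C1 to C3) against 16.4, 17.6 and 24.4 CPM (K1 to K3). The libraries within each group were close to each other, and the groups lay far apart. The log2 fold change was 3.34 ± 0.30 (SE; edgeR adjusted p = 0.00084). Tbx18, a factor of epicardium, sinus node, somites and the precursors of the dermal papilla, is on chromosome 9 (87702800 to 87731260, minus strand). It had 0.900, 0.0874 and 0.0684 CPM (C1 to C3) against 3.53, 4.27 and 3.31 CPM (K1 to K3). All knockout-labelled libraries were above C1, which held 85.7% of the 28 control-labelled counts. The log2 fold change of 3.37 ± 0.90 (SE) missed the threshold (edgeR adjusted p = 0.0599). Tbx18 was called in 6 of the 18 alternatives, among them the fit without C1 (5.50, edgeR adjusted p = 0.00682) and the fit with the replicate number as a block (4.09, edgeR adjusted p = 0.0485). It was not called with replicates 1 and 2 alone (2.95, edgeR adjusted p = 0.242), with the Xist covariate (edgeR adjusted p = 0.127) or without any 1 of the other 5 libraries (edgeR adjusted p = 0.0964 to 0.152). Both genes overlap an annotated transcript on the opposite strand without a row of its own (Gm43120 at Tbx15, D030062O11Rik at Tbx18).

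Tbx1, the main gene of DiGeorge syndrome, patterns the pharyngeal arches and is also known from stem cells of the hair follicle. It lies on chromosome 16 (18580979 to 18590671, minus strand) and had 2.33, 1.27 and 0.103 CPM (C1 to C3) against 12.3, 7.98 and 10.5 CPM (K1 to K3). The knockout-labelled libraries were close to each other, while the control-labelled ones ranged from 62 counts in C1 to 3 in C3. The log2 fold change was 3.06 ± 0.77 (SE), and the gene was called by a small margin (edgeR adjusted p = 0.0492). The call was lost without C2, K1, K2 or K3 (edgeR adjusted p = 0.0946 to 0.112) and with replicates 1 and 2 alone (log2 fold change 2.48, edgeR adjusted p = 0.0894). Tbx3 and Tbx15 were called in each of those settings.

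C1 stood out among the control-labelled libraries in the same way for Tbx1, Tbx2 and Tbx18, with 66.0, 82.4 and 85.7% of the group's counts. The summed level of the 8 listed hair follicle markers was 404 CPM in C1, 144 in C2 and 114 in C3, and 526, 172 and 183 CPM (K1 to K3), and Sox9 made up most of it (307, 85.9 and 89.0 CPM against 460, 105 and 117). The markers did not move as one: Sox9, Lhx2, Lgr5 and Shh were highest in C1 among the control-labelled libraries, while the inner root sheath keratins Krt25 (4.31 CPM in C1 and 14.1 in C2), Krt27 (1.99 and 5.46) and Krt71 (4.09 and 10.8) were highest in C2. Krt73, the remaining keratin listed, was about level in C1 and C2, at 1.13, 1.09 and 0.308 CPM (C1 to C3). K1, with the highest sum of all, was the highest of its group for Tbx1 but not for Tbx2 or Tbx18. Lgr5 and Shh, 2 of these markers, had 17.1 and 14.5 CPM in C1 and 1.23 to 1.98 CPM in C2 and C3. The part of follicle cells in these T-box values was not tested. In libraries of sorted cells, fewer cells with a transcript and less transcript per cell cannot be told apart.

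Eomes, which acts in trophoblast, endoderm and natural killer cells, lies on chromosome 9 (118478212 to 118486132, plus strand). It had 0, 3 and 0 counts (C1 to C3) against 33, 25 and 6 (K1 to K3). The groups did not overlap, but K3 was at 0.195 CPM against 1.14 and 1.29 CPM in K1 and K2. The ratio over the summed counts was 21.2 (95% interval 6.95 to 106, counting error only), and the exact permutation test gave p = 0.1 (two-sided), the smallest that 3 against 3 libraries allow. Fitted without a count filter it missed the threshold (edgeR adjusted p = 0.126). Eomes also overlaps an antisense gene, Gm33460, that has no row in the files, so reads of that transcript cannot be told apart from those of Eomes. Nkg7, a marker of natural killer cells, had 0 CPM in every library except K2, where it had 1.34 CPM.

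Tbx6, a factor of presomitic mesoderm, and Tbx20, a heart factor, gave no separation of the groups. Tbx6 (chromosome 7, 126781483 to 126785560, plus strand) had 0.113, 0.743 and 0.103 CPM (C1 to C3) against 0.0692, 0.360 and 0.715 CPM (K1 to K3). Its log2 fold change was 0.28 ± 1.16 (SE; edgeR adjusted p = 0.914; approximate 95% interval -2.00 to 2.56). Tbx20 (chromosome 9, 24718138 to 24774303, minus strand) was counted in C2 and K2 alone, with 6 and 13 counts (exact permutation p = 1.00, two-sided). At these counts neither an increase nor a decrease could be told from no change.

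Per kilobase of exon, Tbx3 led the 10 genes in the knockout-labelled libraries at 8.25 ± 2.09 CPM (SD, n = 3), before Tbx15 at 5.20 ± 1.15, Tbx1 at 2.92 ± 0.62 and Tbx18 at 0.786 ± 0.107. The ranges of Tbx3 (6.48 to 10.6) and Tbx15 (4.39 to 6.51) touched, while those of Tbx15, Tbx1 (2.27 to 3.50) and Tbx18 (0.702 to 0.906) were apart. Tbx6, Eomes, Tbx5 and Tbx2 followed at 0.182 to 0.211 with overlapping ranges, and Tbx4 and Tbx20 were lowest, at 0.0407 and 0.0186. In the control-labelled libraries Tbx3 (0.521 ± 0.250), Tbx15 (0.511 ± 0.081) and Tbx1 (0.350 ± 0.316) had the highest means, with overlapping ranges. Summed over the 10 genes, the level was 6.05 to 10.0 CPM in the control-labelled and 77.0 to 105 CPM in the knockout-labelled libraries, of which Tbx3 and Tbx15 made up 78.5 to 82.3%.

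Genes around the T-box loci were called about as often as genes at large. The nearest 2 coding genes on each side with a row in the files gave 32 neighbours, of which 26 were tested, 2 were called higher and 1 lower, beside 10.2% of all tested genes called in either direction; their median log2 fold change was 0.06, and that of all tested genes 0.00. Med13l and Rbm19, on either side of the Tbx3 and Tbx5 pair, had log2 fold changes of 0.35 ± 0.25 and 0.82 ± 0.38 (SE; edgeR adjusted p = 0.431 and 0.235). Wars2, which ends 1.20 kb before Tbx15, had 20.9 to 39.7 CPM in the control-labelled and 17.4 to 30.7 CPM in the knockout-labelled libraries, so its groups overlapped. Nt5e, an enzyme that makes adenosine at the cell surface, is the nearest listed coding gene beyond the start of Tbx18, at 596 kb. It rose from 2.63, 1.01 and 2.57 CPM to 22.8, 21.9 and 12.2 CPM, a log2 fold change of 3.19 ± 0.42 with an edgeR adjusted p of 0.00406. Sept5, a septin 29.8 kb from Tbx1, rose by a log2 fold change of 1.25 ± 0.30 (SE) with an edgeR adjusted p of 0.0354, and its call was lost without any 1 library (edgeR adjusted p = 0.0522 to 0.138) and with replicates 1 and 2 alone (edgeR adjusted p = 0.355). Sept5 overlaps Gp1bb, so their reads may be shared. Brip1, a DNA repair helicase beyond Tbx4, fell by 1.03 on the log2 scale (SE 0.25; edgeR adjusted p = 0.0339), a call lost without C1, C2, C3, K1 or K3 (edgeR adjusted p = 0.0558 to 0.119) and with replicates 1 and 2 alone (edgeR adjusted p = 0.297).

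**Figure D3:**
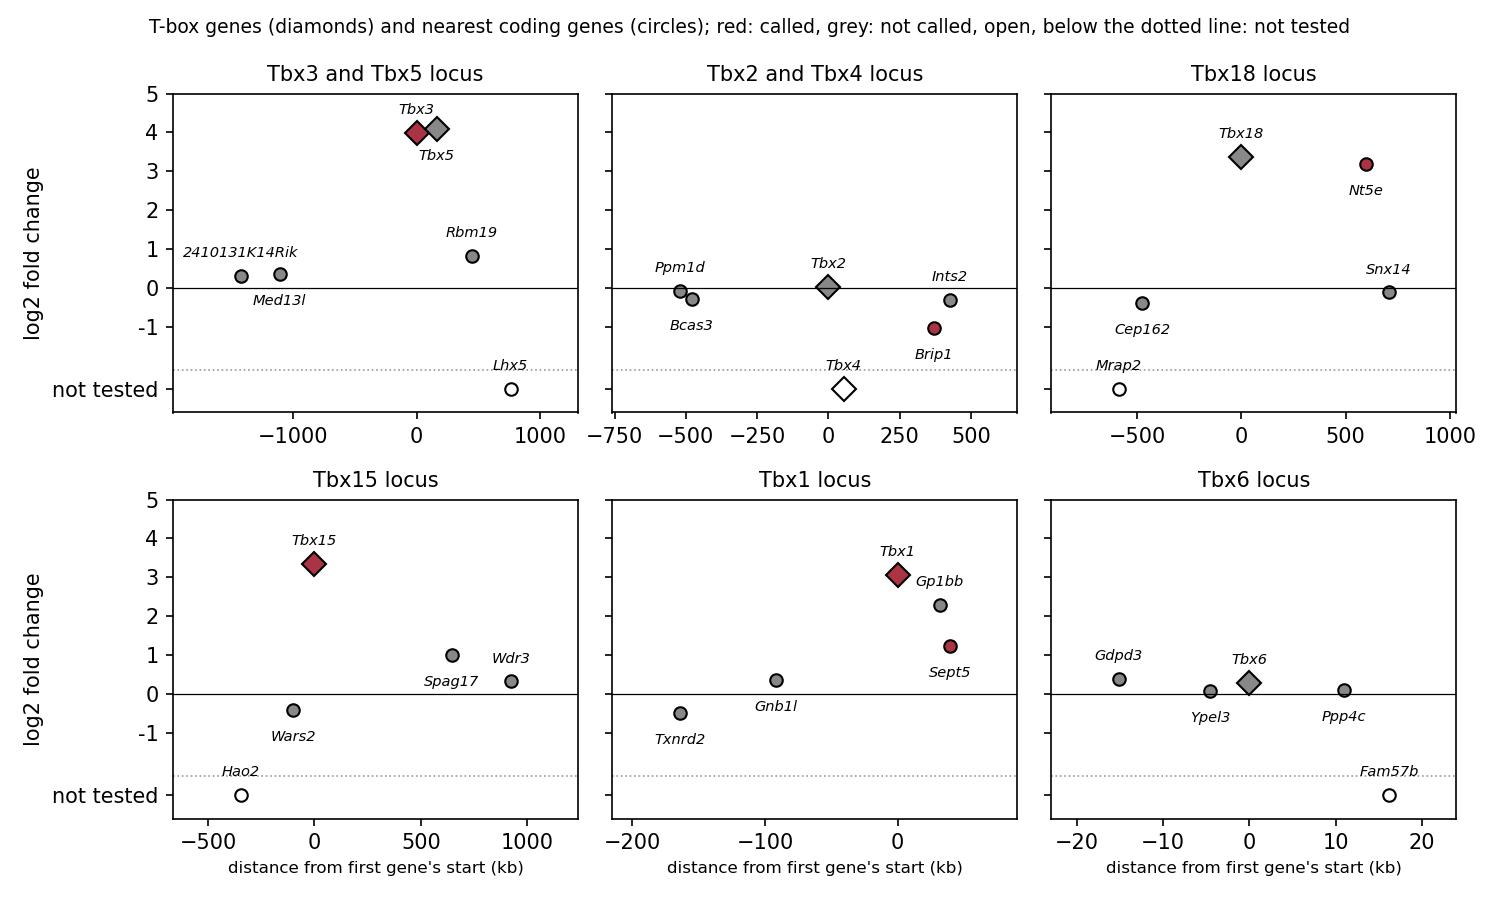
Log2 fold change of T-box genes (diamonds) and their nearest coding genes (circles) against distance in kb from the start of the first-named T-box gene, in 6 loci; red is called, grey is not called and open symbols below the dotted line were not tested. Tbx3 and Tbx5 stand at 3.99 and 4.08 above tested neighbours that are all under 1, and Nt5e stands at 3.19 in the locus of Tbx18, which is at 3.37.

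The 7 other family members listed gave no call. Mga, a large T-box protein that dimerizes with Max and is part of a variant PRC1, was abundant and even, at 349 to 466 CPM in the control-labelled and 376 to 439 CPM in the knockout-labelled libraries, with a log2 fold change of 0.03 ± 0.18 (edgeR adjusted p = 0.942). Tbr1, a cortical neuron factor, was tested and overlapped between groups (0.137 to 1.54 against 0.650 to 1.90 CPM). T (Brachyury) and Tbx19 had no count in any library, and Tbx10, Tbx21 and Tbx22 had at most 4 counts in any library. edgeR called 0 of the 2 tested genes, 0 had an unadjusted p under 0.05, and DESeq2 and limma-voom each called 0.

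Partners of T-box factors rose in part. Of 17 listed partners and cofactors 13 were tested, and 5 were called higher and 0 lower, beside 7.17% and 2.98% of all tested genes. The median log2 fold change of the 13 was 0.76, and that of all tested genes 0.00. Nkx2-5, without a control-labelled count, passed the filter through the knockout-labelled libraries alone and could not be called lower. The called genes were lineage factors. Gata4, the zinc finger partner of Tbx5 and Tbx20 in the heart, had 0.713, 0 and 0 CPM (C1 to C3) against 21.2, 16.5 and 16.8 CPM (K1 to K3) (edgeR adjusted p = 0.00865). Gata6 rose from 0.342 to 1.01 CPM in the control-labelled to 6.30 to 8.08 CPM in the knockout-labelled libraries. Nkx2-5, the heart homeobox partner, had no control-labelled count and 0.519, 0.978 and 0.812 CPM (K1 to K3), which is at least 19.6-fold higher when 3 counts are allowed for the control-labelled group. Its call was lost without C1, C2, C3, K2 or K3 (edgeR adjusted p = 0.0526 to 0.0901). Pax3, a neural crest and muscle factor, rose from 0.262 to 0.900 CPM to 12.8 to 16.1 CPM. The corepressor Tle4 had 37.3 to 43.3 against 54.3 to 84.7 CPM and missed the threshold (edgeR adjusted p = 0.0587). Of the partners with the highest levels, Wwtr1, the coactivator TAZ, had a log2 fold change of -0.26 ± 0.22, and Tle3, another Groucho corepressor, 0.05 ± 0.16 (SE; edgeR adjusted p = 0.529 and 0.893). Ripply3, a T-box corepressor, had 13.5 to 14.6 CPM in the control-labelled libraries and 3.84, 16.2 and 16.4 CPM (K1 to K3).

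Known targets and programme genes of limb, heart and mesoderm also split. Of 20 listed genes 12 were tested, and 6 were called higher and 1 lower, beside 7.17% and 2.98% of all tested genes. The median log2 fold change of the 12 was 1.75. Isl1, Gsc and Cdkn2a, without control-labelled counts, passed the filter through the knockout-labelled libraries alone and could not be called lower. The counts thus describe the tested genes and not the whole list. Pitx1, the hindlimb factor upstream of Tbx4, had 0, 0.0437 and 0.103 CPM (C1 to C3) against 25.5, 26.1 and 23.8 CPM (K1 to K3), while Tbx4 itself had counts in K1 alone. Isl1 and Gsc, factors of heart progenitors and of the organizer, had no control-labelled count and were at least 85.0-fold and 30.2-fold higher, the second losing its call without K2 (edgeR adjusted p = 0.0655). Cdkn2a and Cdkn1a, cell cycle inhibitors that Tbx2 and Tbx3 are known to repress, were both called higher. Cdkn2a had 0 counts (C1 to C3) against 1.56, 1.03 and 1.69 CPM (K1 to K3), at least 38.8-fold higher. Cdkn1a rose from 245 to 259 CPM to 415 to 470 CPM, and its call was lost without C2 or C3 (edgeR adjusted p = 0.0501 and 0.0661). Dll1, the Notch ligand that Tbx6 activates in mesoderm, fell by 1.04 on the log2 scale, a call lost without C2 or K2 (edgeR adjusted p = 0.0802 and 0.0851). Fgf10, a limb bud target of Tbx5, was counted mainly in K1, at 1.32 CPM against 0 to 0.154 CPM in the other 5 libraries, and it was not tested, like Nppa, Gja5, Fgf8, Mesp1, Msgn1, Grem1 and Mixl1. Cdh1, which Tbx2 and Tbx3 can repress, was not called (log2 fold change 0.36 ± 0.19, SE; edgeR adjusted p = 0.299).

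With replicates 1 and 2 alone the calls became 3 of the partners, and 2 higher and 0 lower of the targets, and Gata6, Nkx2-5, Gsc, Cdkn2a, Cdkn1a and Dll1 were among those lost (edgeR adjusted p = 0.0540 to 0.212). Without a single library, 4 to 6 partners were called higher, and 5 to 7 targets were called higher and 0 or 1 lower.

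Markers of other cell types were read beside these values, since Tbx15 and Tbx18 are dermal genes. Of 10 fibroblast markers 9 were tested, 0 were called higher and 1, Postn, was called lower. Their summed level was 1362 to 1908 CPM in the control-labelled and 980 to 1274 CPM in the knockout-labelled libraries, with Postn at 1109 to 1116 against 381 to 638 CPM. Without Postn the sums overlapped, at 799, 248 and 464 CPM (C1 to C3) against 599, 441 and 734 CPM (K1 to K3), and the median log2 fold change of the 9 tested markers, Postn included, was 0.23. Col1a2 had 49.0 to 108 against 39.5 to 92.8 CPM and Pdgfra 1.49 to 4.55 against 4.22 to 10.9 CPM. Twist2, not tested, had 0 to 1.06 CPM in the control-labelled libraries and 0.130 CPM or less in K1, K2 and K3. In edgeR 3 of the 9 had an unadjusted p under 0.05, in both directions. These were Pdgfra, with a log2 fold change of 1.24, and Lum and Postn, with -1.69 and -1.10. The Merkel cell list moved in part. Its 3 tested genes, Krt18, Isl1 and Sox2, were called higher. Isl1 and Sox2 had no control-labelled count, so they passed the filter through the knockout-labelled libraries alone and could not be called lower. Krt8 (0 to 1.20 against 0.195 to 1.97 CPM) and Krt20 (0 to 0.137 against 0.0325 to 2.18 CPM) overlapped between groups. Atoh1, the defining factor of these cells, was at 0 to 0.342 CPM. The sum of the list went from 0.612 to 2.63 CPM to 27.6 to 77.0 CPM, with Krt18 alone at 19.8 to 67.5 CPM in the knockout-labelled libraries. Of the melanocyte (5 tested of 7), immune (5 of 8), endothelial (5 of 5) and muscle (3 of 7) markers edgeR called 0 (unadjusted p under 0.05 in 2 melanocyte genes and 0 of the others; DESeq2 called those 2 higher and 0 others, limma-voom 0), and of the 8 tested hair follicle markers 3 keratins were called lower. Summed levels overlapped between groups for immune (98.7 to 287 against 61.9 to 212 CPM), endothelial (7.26 to 46.4 against 7.93 to 37.9) and muscle markers (0.962 to 3.75 against 0.618 to 2.35), with Myod1 at 0 in every library. The melanocyte sums overlapped only at their edges, at 12.93 to 16.30 against 16.27 to 27.35 CPM. Dct and Tyrp1 were higher in every knockout-labelled library than in any control-labelled one, while Mitf, Pmel, Sox10, Tyr and Mlana overlapped. The part of Merkel-type cells in the T-box results was not tested.

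The genes most like Tbx3 in profile were taken by a measure of distance. By the mean absolute difference of log2(CPM + 0.1), centred on each gene's mean over the 6 libraries, the 5 nearest were Bend7 (0.155), Mirg (0.172), Aebp1 (0.173), Homer2 (0.202) and Rpp25 (0.215). Aebp1 was the nearest of comparable level, at 1.61, 4.94 and 4.79 CPM (C1 to C3) against 65.7, 42.8 and 37.7 CPM (K1 to K3). Like Tbx3 it was lowest in C1 and highest in K1, as were the others named. They were chosen for a profile like that of Tbx3, so this is no separate result.

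**Figure D4:**
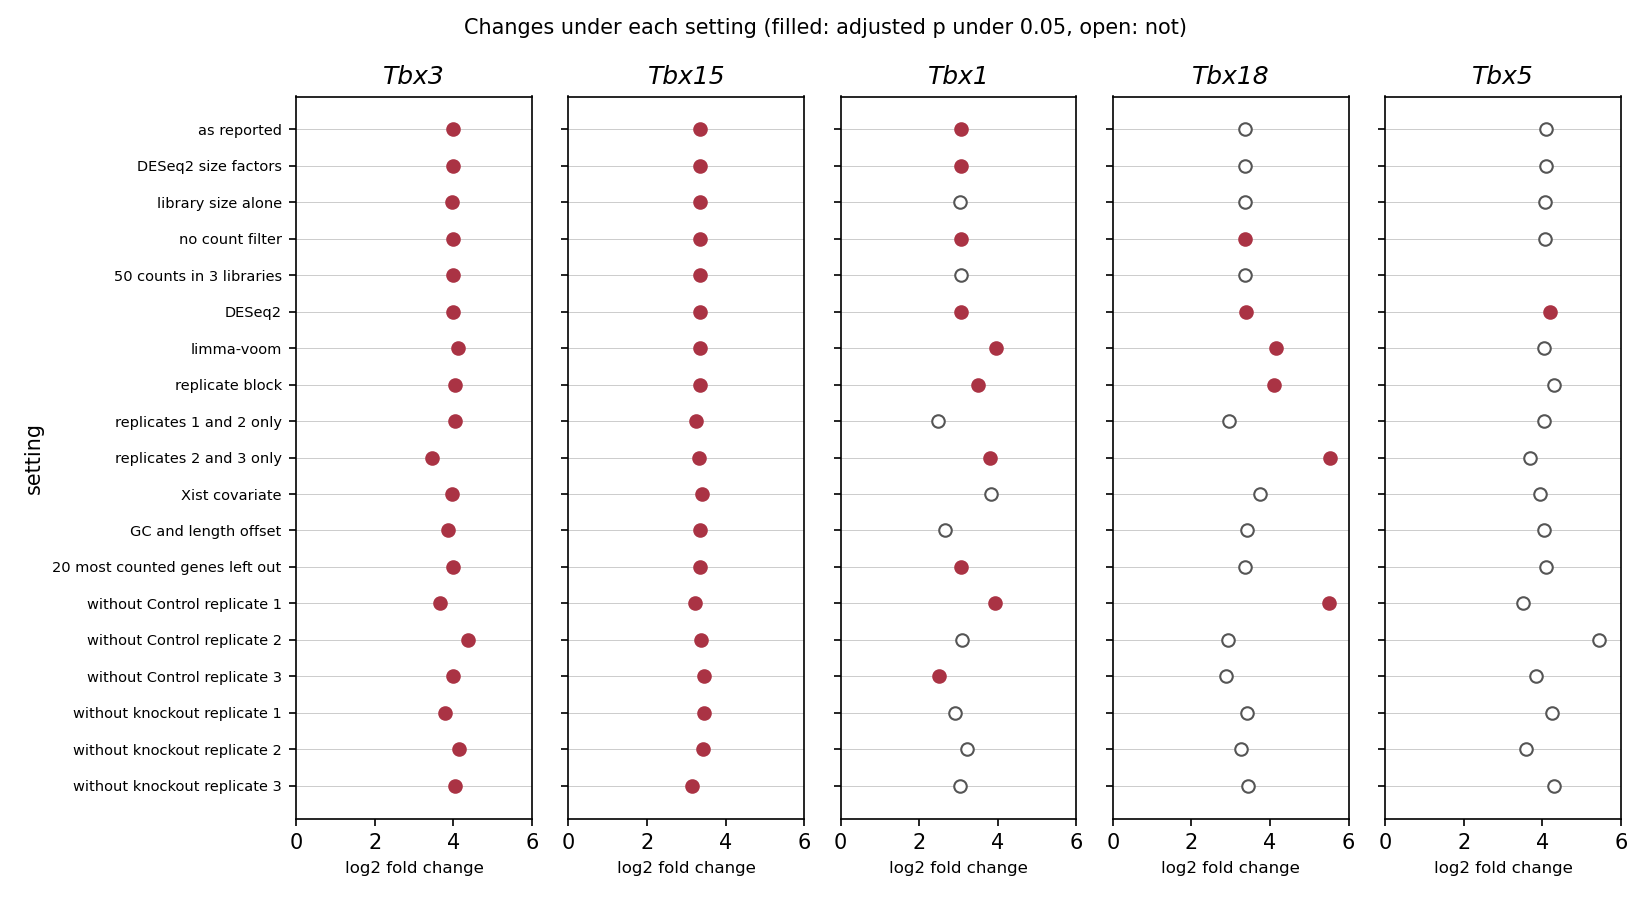
Log2 fold change of 5 T-box genes under the reported fit and 18 alternative settings, filled where the adjusted p was under 0.05 and open where it was not. Tbx3 and Tbx15 are filled throughout at 3.46 to 4.36 and 3.15 to 3.46, whereas Tbx1 and Tbx18 are filled in part and Tbx5 with DESeq2 alone, with no point at the filter of 50 counts, which it did not pass.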

How the data were processed

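RNA was amplified with the Ovation V2 kit and sequenced as single reads, per the labels' protocols. The authors deposited raw counts per gene symbol, 1 file per sample. The submitters' processing notes name DESeq2 1.6.3, HTSeq 0.6.1, TopHat2 2.0.13, the mm10 build and Cufflinks 2.2.1, with no step or strand assigned. Groups come from the sample titles. Knockout-labelled and control-labelled libraries were compared with edgeR 4.0.16 in R 4.3.3: TMM, filterByExpr (minimum count 10, total 15), a two-sided quasi-likelihood test, Benjamini-Hochberg adjustment over 14890 genes and calls at 0.05. Folds use a prior count of 0.125, and the SE comes from the fitted model. Chromosome positions and exon lengths are from GENCODE M21 (GRCm38). limma 3.58.1 and DESeq2 1.42.0 were alternatives. The genes, lists and settings were chosen with earlier results of these data known. The rule for names was all T-box genes listed, Ring1 and Rnf2, called list members and neighbours, and the 5 genes most like Tbx3; others were chosen after their values were seen. Some genes that the rule names are counted in their lists and not reported here by name. The fit was tested on simulated counts with a shared dispersion for all genes and changes placed in genes above a minimum level. It recovered 5 of 62 changes of 2-fold, 58 of 70 of 4-fold and 67 of 67 of 16-fold. There were 6 false calls among 14742 genes fitted. A gene not called may thus still have changed by 2-fold. Intervals of log2 fold changes use a normal approximation.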

Additional observations from a re-analysis of the deposited data

How the results depend on the processing

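Tbx3 and Tbx15 were called higher under all 18 alternatives. The count of T-box genes called higher was 3 as reported, 5 with DESeq2 (Tbx18 and Tbx5 added), 2 to 4 without a single library and 2 to 4 otherwise, and 0 were lower in every setting run. Tbx1 was lost with library size alone, the 50-count filter, replicates 1 and 2 alone, the Xist covariate and the GC and length offset (edgeR adjusted p = 0.0506 to 0.0894), and the cause was not tested. Tbx2 reversed to -0.82 with replicates 1 and 2 alone, to -0.40 with the GC and length offset, and ranged from -0.51 to 1.83 without a single library. Tbx6 ranged from -0.15 to 1.79 without a single library and reversed to -0.13 without C1 and -0.15 without C3. Mga reversed to -0.011 from replicates 1 and 2, to -0.11 from replicates 2 and 3, and ranged from -0.049 to 0.18 without a single library. None of these was called. With the replicate block 4 T-box genes were higher, Tbx18 newly so, and the target genes called lower went from 1 to 2. The block also ended the calls of Gsc, Nkx2-5 and Sept5 (edgeR adjusted p = 0.0525 to 0.0769). Same-numbered libraries correlated at 0.186, 0.261 and 0.077 in their deviations from the group means, each library best with its own number, a hint from the data alone. The labels do not say that the numbers mark shared animals, litters or days, so the numbers are not taken as pairs. Over all genes 1068 were higher and 444 lower. These became 354 and 85 from replicates 1 and 2 (80.6% higher, against 70.6%), 1633 and 1061 from replicates 2 and 3 (60.6% higher), 1639 and 896 by DESeq2, 640 and 176 with the Xist covariate, and 630 to 957 and 174 to 436 without a single library. Partners called higher ranged from 3 to 8 and targets from 2 to 7 over all settings. Counts of 0 to 33 per library limit Tbx4, Tbx5, Tbx6, Tbx20 and Eomes.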
